A study of Mus musculus with 2 samples.

Results

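The miRNAs miR-22 and miR-21 were measured in extracellular vesicles (EVs) shed by cultured mouse astrocytes. They were taken as the probes named rno-miR-22 and rno-miR-21 on the NanoString code set, 2 of its 420 miRNA probes. It held 0 probes for their passenger strands, the hairpin arms that are usually degraded. The IL-1β sample was EVs collected 2 h after IL-1β, an inflammatory cytokine, was added at 200 ng per ml. The control sample was EVs of astrocytes given no treatment, accumulated over 24 h, so treatment and collection time cannot be told apart. Both came from cortical astrocytes of GFAP-EGFP mice, in which a fluorescent protein is driven by the promoter of GFAP, an astrocyte gene. Per the labels' protocols, cells were isolated at postnatal day 1, were 98% GFAP-positive, were used between passages 3 and 10, and the medium of 8 to 10 flasks was combined. Each group held 1 sample, so no value below has a replicate check, no p-value is given, and intervals are 95% intervals for counting error only.

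A miRNA pairs through its seed, bases 2 to 8, with sites in messenger RNAs and lowers their translation or stability. Both miRNAs have been reported to repress PPARα, a nuclear receptor that is activated by fatty acids, drives genes of fat oxidation and restrains inflammatory gene expression. The report for miR-22 came from human cartilage cells, and reports for miR-21 came from human liver and endothelial cells and mouse liver. In brain, miR-22 is abundant in many cell types, while miR-21 is best known as a miRNA that increases in astrocytes and other cells after injury or inflammation. The code set carried mRNA probes only for Actb, B2m, Gapdh and Rpl19, so PPARα itself was not measured here.

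The mature sequences are shown because the seed sets which messages each miRNA can pair with. They are RefSeq's mouse entries (GRCm38.p6), 5′ to 3′, with the seed in capitals. The miR-27 pair, reported to repress PPARα in human liver cells and used for comparison below, is included.
mmu-miR-22-3p: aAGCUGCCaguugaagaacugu
mmu-miR-21a-5p: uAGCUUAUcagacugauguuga
mmu-miR-27a-3p: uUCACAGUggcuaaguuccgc
mmu-miR-27b-3p: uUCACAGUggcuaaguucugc
The seeds of miR-22 and miR-21 differ, with 4 of their 7 bases equal by position and 6 of 22 over the whole length. Among 1679 mature mouse miRNAs in the table, no other carried the miR-22 seed. The miR-21 seed was shared by 1 other, miR-21c, for which the code set held 0 probes. The mature forms of miR-27a and miR-27b share their seed and differ at 1 of 21 positions (20 equal), so part of the count of each can come from the other. G and C made up 45.5% of miR-22 and 36.4% of miR-21.

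The hairpins are shown with the arm named above in capitals, to place the strand that the probes read against the passenger arm they do not.
Mir22: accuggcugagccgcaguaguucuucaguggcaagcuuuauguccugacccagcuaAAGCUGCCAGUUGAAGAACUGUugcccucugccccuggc
Mir21a: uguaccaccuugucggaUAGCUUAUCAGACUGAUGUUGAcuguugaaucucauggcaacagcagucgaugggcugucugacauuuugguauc
Both genes lie on mouse chromosome 11. The Mir22 hairpin spans chr11:75463716-75463810 on the plus strand, within the long non-coding RNA gene Mir22hg, its host transcript. The Mir21a hairpin spans chr11:86584067-86584158 on the minus strand, within the bounds of the protein-coding gene Vmp1. The probes were designed for rat, and their own sequences were not used here.

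The 420 miRNA probes summed to 13514 counts (IL-1β) and 16812 counts (control). Background was set per sample at 2 SD above the mean of its 8 negative controls, at 9.67 and 6.41 counts. Above it, 146 and 185 probes were counted. These included 41 and 49 of the 71 probes whose miRNA has no mouse gene of the same number in RefSeq. Passing this threshold therefore does not by itself show that a mouse miRNA was detected. Of the markers fixed for the labelled cell type, 5 of 5 astrocyte miRNAs were above background in both samples (2137 and 3230 counts in sum). Of these sums, miR-125b-5p alone gave 1478 and 1660 counts. Fibroblast and mural cell markers also passed, 4 of 5 in each sample, and summed to 843 and 1465 counts, while the 3 neuron markers summed to 6 and 8. Of the other sets, muscle markers passed for 2 of 4 in each sample (44 and 49 counts in sum). Microglia and leukocyte markers passed for 1 of 4 with IL-1β and 2 of 4 in the control (23 and 26 counts). In control EVs alone, 1 oligodendrocyte, 1 endothelial and 1 hepatocyte marker passed. No erythroid marker passed in either sample. The astrocyte sum and the fibroblast and mural sum were both lower in the IL-1β sample, as were the miR-22 count and the total, but their members differed. On the scaling described below, ratios of IL-1β over control were below 1 for miR-99a, miR-100, miR-181a, miR-145, miR-199a-3p and miR-199a-5p. They were not for the astrocyte markers miR-125b-5p (1.02) and miR-29a (1.26), nor for the fibroblast and mural marker miR-214 (1.21). The part of these cell types in the miR-22 value was not tested. The 4 mRNA probes went the other way, summing to 39568 counts with IL-1β against 1175 without, and whether this bears on the miRNA values was not tested.

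The data show a large difference in miR-22 and, on the scaling described below, none beyond counting error in miR-21. The miR-22 probe was counted 319 times in IL-1β EVs, with an exact Poisson interval of 285 to 356. In control EVs it was counted 923 times (864 to 985). The intervals do not overlap, and both counts stood far above the negative-control threshold, at 33.0 and 144 times its value. Its share of all miRNA counts was 2.36% in IL-1β EVs (exact binomial interval 2.11 to 2.63) against 5.49% in control EVs (5.15 to 5.85). In control EVs miR-22 was the second most counted miRNA, rank 2 of 420, below miR-125b-5p (1660 counts) and above miR-181a (792 counts). In IL-1β EVs it held rank 8, below let-7c (367 counts) and above the probe miR-3583-3p (270 counts), which has no mouse counterpart. The 6 probes that passed it were let-7b, let-7c, let-7d, miR-125a-5p, miR-145 and miR-466c. No other probe had a count within the miR-22 interval in either sample, so its own counting error alone did not change these ranks. Counting error of the neighbouring probes, such as let-7c, was left out of this.

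The miR-21 probe was counted 46 times (33.7 to 61.4) with IL-1β and 71 times (55.5 to 89.6) in the control. These intervals overlap. The shares were 0.340% (0.249 to 0.454) and 0.422% (0.330 to 0.532), and the ranks 62 and 49. Its counting error spans ranks 53 to 73 with IL-1β and 42 to 60 in the control. It sat between miR-3581 (49 counts) and miR-98, a let-7 relative (45 counts), in IL-1β EVs, level with miR-3596b. In control EVs its neighbours were miR-449c-3p (74 counts) and miR-191 (66 counts).

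The miR-21 counts were 4.76 and 11.1 times the negative-control threshold, but this is a lenient bound for it. Of 71 probes whose miRNA has no mouse gene of the same number in RefSeq, 15 had at least as many counts as miR-21 in IL-1β EVs and 8 did in control EVs. For miR-22 that number was 0 in both. The highest such probe had 270 counts in IL-1β EVs, near the 319 of miR-22. In control EVs the highest had 238, against 923 for miR-22. How much of the miR-21 or miR-22 count comes from other RNAs was not tested.

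**Figure D1:**
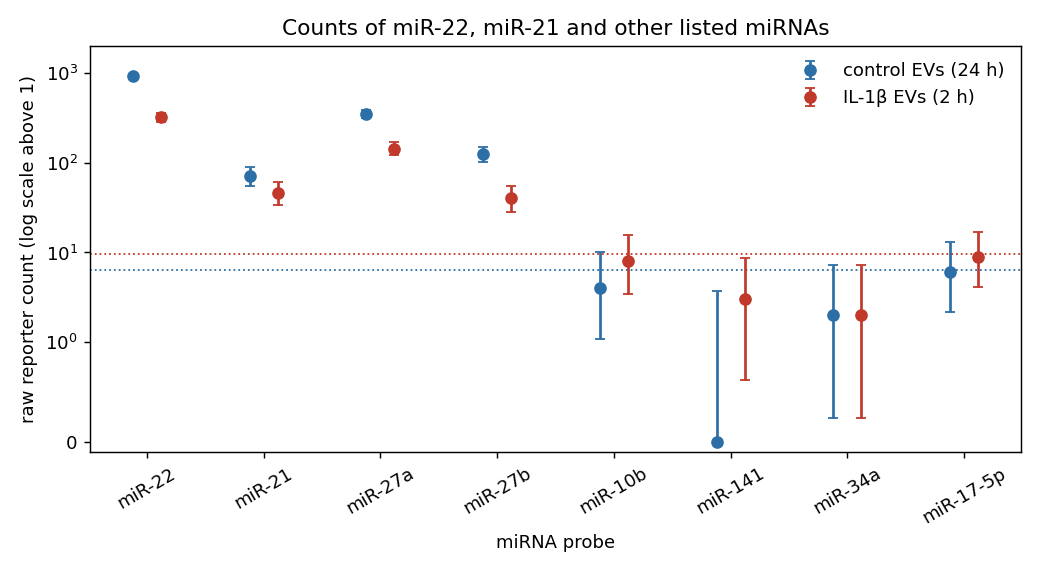
Raw reporter counts (vertical axis, log scale above 1) of the 8 probes on the code set among the miRNAs listed as PPARα repressors, in control EVs (blue) and IL-1β EVs (red). Bars are 95% Poisson intervals and dotted lines the background thresholds, 6.41 for control and 9.67 for IL-1β. Counts of miR-22, miR-21, miR-27a and miR-27b lie above the thresholds, and those of the other 4 lie below them.

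To compare the preparations, each sample's counts were divided by their geometric mean over the 100 most counted miRNAs, which stood at 0.875 for IL-1β relative to control. On that scale miR-22 was 2.53-fold lower in IL-1β EVs (exact interval of the split between samples 2.23 to 2.89), a log2 ratio of -1.34. The miR-21 ratio of IL-1β over control was 0.740 (0.499 to 1.09), a log2 ratio of -0.43, so its difference was within counting error. A probe was called lower where it was at least 2-fold lower with an interval excluding 1. By that rule miR-22 was called and miR-21 was not, where 15 of 160 probes with a ratio or a bound against background were called lower, 9.38%, and 9 were called higher, 5.62%.

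Set among the other probes, miR-22 was near the low end and miR-21 was not. Above background in both samples were 139 probes, with a median ratio of 1.21, and 31.7% of them had a ratio below 1. The 139 include probes with no mouse counterpart, so these values do not describe mouse miRNAs alone. Of the other 138, 7 had a lower ratio than miR-22, and 28 had a lower ratio than miR-21.

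**Figure D2:**
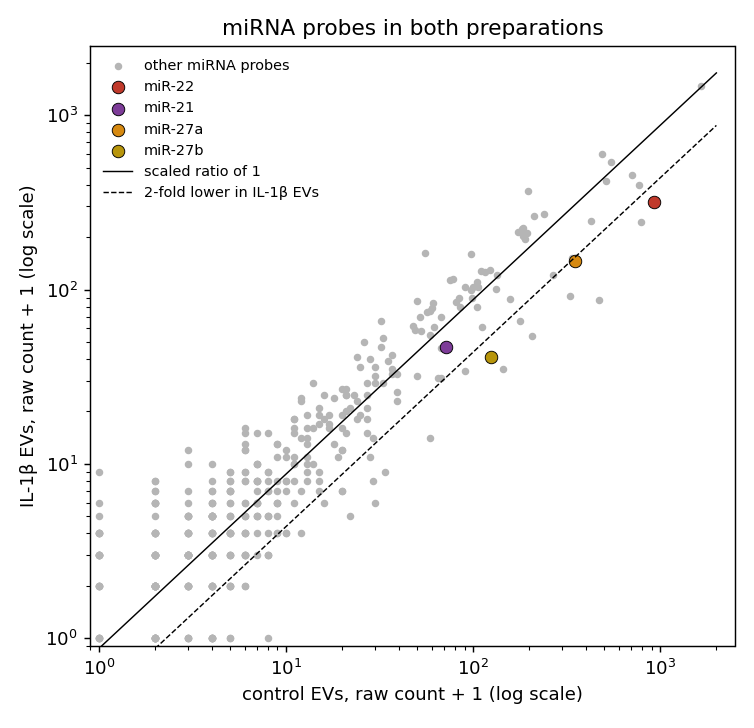
Raw count + 1 of each of the 420 miRNA probes in control EVs (horizontal axis) and IL-1β EVs (vertical axis), both on log scales. The solid line marks a scaled ratio of 1 and the dashed line a ratio 2-fold lower in IL-1β EVs. The points of miR-22 (319 against 923 counts), miR-27a and miR-27b lie below the dashed line, and miR-21 (46 against 71) lies between the lines.

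A ratio between probes within a sample needs no scaling, although probes can differ in efficiency, so only its change between samples is comparable. In control EVs the miR-22 count was 13.0 times that of miR-21, and in IL-1β EVs it was 6.93 times. The miR-22 to miR-21 ratio was thus 1.87-fold lower in IL-1β EVs (exact conditional interval 1.24 to 2.82). In raw counts the difference between the miRNAs was therefore larger than counting error, whichever factor is used to scale the samples. Counts that come from other RNAs do not cancel in this ratio, and their part was not tested.

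The direction of miR-22 held under 8 scalings, and its ratio ranged from 0.229 (0.201 to 0.261) with positive controls to 0.431 (0.378 to 0.490) with the 50 highest probes. Each of these intervals lay below 0.5. The ratio of miR-21 ranged from 0.430 (0.290 to 0.632) to 0.808 (0.545 to 1.19). Its interval excluded 1 with positive controls, with no scaling (0.648, 0.437 to 0.952), with the median ratio (0.613, 0.413 to 0.900) and with probes that have no mouse counterpart (0.579, 0.391 to 0.851). It included 1 with total counts and with the 50, 100 or 200 highest probes, so these counts do not settle whether miR-21 was lower.

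**Figure D3:**
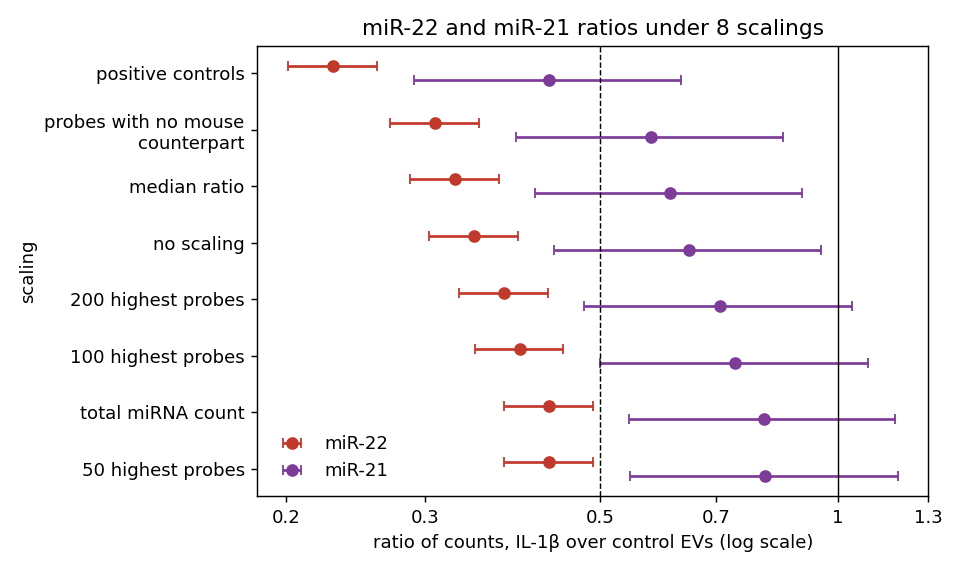
Ratio of counts, IL-1β over control EVs (log scale), of miR-22 (red) and miR-21 (purple) under 8 scalings. Bars are 95% intervals for counting error. The solid line marks 1 and the dashed line 0.5. All miR-22 intervals end below 0.5, and miR-21 intervals cross 1 under 4 scalings.

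The miRNAs whose counts were most like those of miR-22, by distance over log2(count + 1) in the 2 samples, were miR-145, miR-181a, let-7b, let-7d and miR-125a-5p. They were chosen on the counts that make up the ratio, so what follows describes them and tests nothing. The counts of miR-181a, abundant in astrocytes, were 244 in IL-1β and 792 in control EVs, and the miR-22 to miR-181a ratio changed 1.12-fold (0.922 to 1.37). Against miR-145, a smooth muscle and fibroblast miRNA with 397 and 775 counts, miR-22 was relatively lower, at 0.675 (0.564 to 0.807). The corresponding values were 0.539 (0.451 to 0.643) against let-7b, 0.423 (0.351 to 0.509) against let-7d and 0.351 (0.293 to 0.419) against miR-125a-5p. The ratios of the 5 themselves ran from 0.352 (0.304 to 0.407) for miR-181a to 1.13 (0.997 to 1.27) for miR-125a-5p.

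The nearest to miR-21 by the same measure were miR-98 (45 and 66 counts), miR-466b (54 and 58), miR-465 (60 and 61), miR-15b (57 and 52) and miR-25 (33 and 89). Their ratios ranged from 0.424 (0.275 to 0.638) for miR-25 to 1.25 (0.845 to 1.86) for miR-15b, with miR-21 at 0.740 between them. As the choice of the 5 used the counts of both samples, closeness of their ratios to that of miR-21 is part of that choice.

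The other miRNAs listed as reported PPARα repressors were miR-27a, miR-27b, miR-10b, miR-141, miR-34a, miR-17-5p and miR-506. Including the members, 8 of the 9 names had a probe, all but miR-506, and 4 were above background in both samples, namely miR-22, miR-21 and the miR-27 pair. Of these 4, 3 were called lower and 0 higher, beside 9.38% called lower over all probes. Their median ratio was 0.433, against 1.21 over the 139 probes, which include probes with no mouse counterpart. The list was drawn up with these results known, so its direction is not independent evidence.

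In the miR-27 pair, miR-27a had 144 counts in IL-1β and 349 in control EVs, 2.12-fold lower (1.74 to 2.59). Its partner miR-27b had 40 against 124, 2.71-fold lower (1.89 to 3.98). Neither differed from miR-22 beyond counting error: the miR-22 ratio relative to miR-27a was 0.838 (0.660 to 1.07) and relative to miR-27b 1.07 (0.726 to 1.61). By contrast, in raw counts miR-21 was relatively higher than miR-27a, at 1.57 (1.01 to 2.43), and than miR-27b, at 2.01 (1.16 to 3.47). The authors' deposited table turns this contrast, with a ratio of 0.536 for miR-21 against 0.620 for miR-27a and 0.840 for miR-27b. These are 4 of 6 such pairs examined, with no adjustment of the intervals for their number.

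The remaining 4 listed probes were below background in both samples and were given no ratio. Counts in IL-1β and control EVs were 8 and 4 for miR-10b, a Hox-cluster miRNA, and 9 and 6 for miR-17-5p, of the growth-promoting miR-17-92 cluster. They were 3 and 0 for miR-141, an epithelial miRNA, and 2 and 2 for miR-34a, a target of p53. A difference in these was not detectable at this depth.

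The authors' deposited table of normalized signals also lists miR-22 and miR-21, and its picture differs. In the authors' deposited table miR-22 had a signal of 2116.80 in IL-1β and 2916.26 in control EVs, a ratio of 0.726. The same deposited table gave miR-21 873.97 and 1631.40, a ratio of 0.536. Both were lower in IL-1β EVs, as were 62.2% of the 119 probes with both deposited signals, and neither reached 2-fold, which 8.40% did in that direction and 9.24% in the other. Of the other probes in the deposited table, 31 had a lower ratio than miR-22 and 13 a lower one than miR-21.

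In the authors' deposited table it was miR-21 that differed more, the reverse of the raw counts. The deposited miR-22 signal was 2.42 times that of miR-21 in IL-1β EVs and 1.79 times in control EVs, so the ratio was 1.35-fold higher in IL-1β EVs, where raw counts put it 1.87-fold lower. The deposited signals carry no error, so this difference has no interval. By deposited signal miR-22 ranked 5 in IL-1β and 2 in control EVs, against 8 and 2 by raw count. The ranks of miR-21 differed more between the sources: it ranked 15 and 8 by deposited signal and 61 and 49 by raw count among the same listed probes.

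The step from count to deposited signal was thus much larger for miR-21. In the authors' deposited table its signal was 19.0 times its raw count in IL-1β EVs and 23.0 times in control EVs, with 9 probes higher in each. The deposited signal of miR-22 was 6.64 and 3.16 times its count, with 45 and 53 probes higher, and the medians were 4.19 over 118 probes and 2.32 over 123. For the miR-27 pair the deposited ratios were 0.620 (miR-27a) and 0.840 (miR-27b). The 4 PPARα-list miRNAs above background by raw count thus had ratios below 1 in both sources. Over all probes with a ratio, 31.7% were below 1 by raw count and 62.2% by deposited signal. Of the probes below background, the deposited table also lists miR-17-5p with a ratio of 1.12 and miR-34a with 2.23. Signals in IL-1β and control EVs were 37.78 and 33.70 for miR-17-5p, and 37.12 and 16.61 for miR-34a. For these signals, the normalization is not stated in the sources used here.

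**Figure D4:**
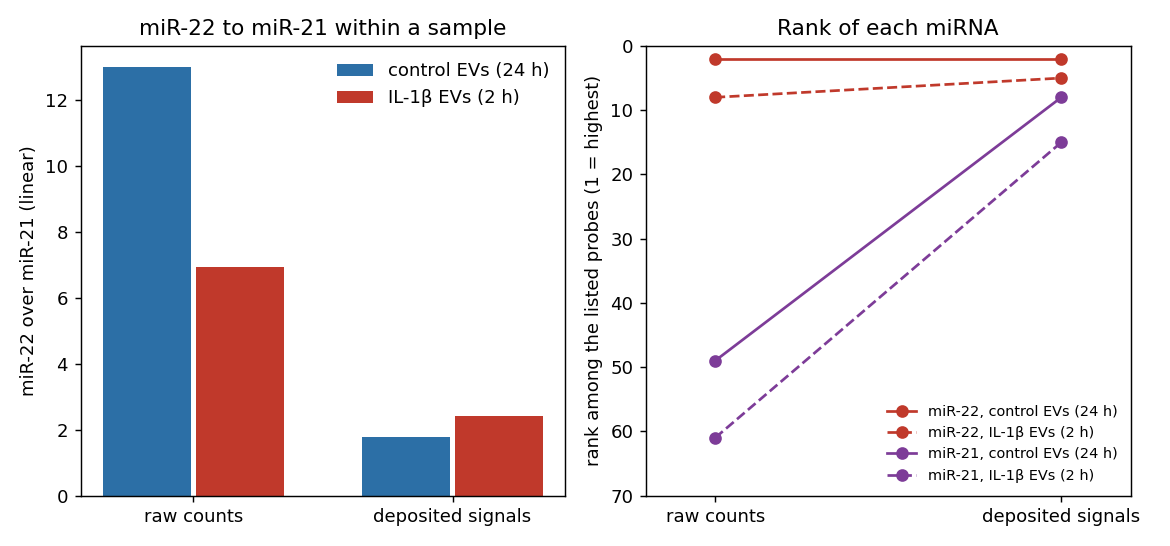
Left, the ratio of miR-22 over miR-21 (linear axis from 0) in control EVs (blue) and IL-1β EVs (red), from raw counts (13.0 and 6.93) and from the deposited signals (1.79 and 2.42). Right, the rank of miR-22 (red) and miR-21 (purple) among the listed probes, 1 being the highest. Solid lines are control EVs and dashed lines IL-1β EVs, and miR-21 moves from ranks 49 and 61 by count to 8 and 15 by signal.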

How the data were processed

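RNA from 2 EV preparations was measured on the NanoString nCounter platform, which counts colour-coded reporter probes. Per the file headers, the authors deposited raw reporter counts for a rat miRNA code set, with 1139 (IL-1β) and 1121 (control) of 1150 fields of view counted. Normalized signals of 124 miRNA probes were also deposited by the authors (5 with no IL-1β signal) and the ratio of IL-1β over control. The authors' deposited value table held the same signals for all 124.

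Ranks, shares, ratios and intervals were computed from the raw counts with Python 3.11.15, numpy 2.4.6, pandas 2.3.3 and scipy 1.17.1, with no background subtraction. Intervals are exact: Poisson for counts, Clopper-Pearson for shares and for how a probe's counts divide between the samples, and conditional odds-ratio intervals for ratios of ratios. Only the interval for how a probe's counts divide was tested on simulated data, drawn as Poisson counts with the scaling factor given. That simulation did not cover the other intervals. Where just 1 sample was above background, the threshold of the other gave a bound on the ratio. Deposited ratios were taken from the signals. Of the miRNA probes, 349 had a mouse gene of the same number in RefSeq's GRCm38.p6 table. RefSeq sequences were matched by name for the 8 listed miRNAs that have a probe.

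Named miRNAs were the members, the PPARα list, cell type markers, the 5 nearest probes and the neighbours in rank. The probes that passed miR-22 in rank, the miR-27 comparisons and the comparison of signals with counts were chosen after values were seen. Members, lists and alternatives were chosen with earlier results of these data known.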

Additional observations from a re-analysis of the deposited data

Results flagged for a closer look

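The 4 mRNA probes lie outside the miRNA comparisons and gave more counts in IL-1β than in control EVs. On the miRNA scaling, Actb was 63.3-fold higher (31319 against 565 counts), Gapdh 34.8-fold (5660 against 186), Rpl19 7.49-fold (1935 against 295) and B2m 5.79-fold (654 against 129). This direction is opposite to that of miR-22, and the part of the mRNA probes in the miRNA values was not tested.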

How the results depend on the processing

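Of the alternatives, 47 values stayed within the counting interval of the reported one (or, for list counts, within 1.5 times), 13 moved beyond it and 1 turned. The one that turned was the miR-22 to miR-21 ratio, 0.533 from raw counts and 1.35 from the authors' deposited signals; the cause was not tested. The miR-22 ratio of 0.395 moved to 0.229 with positive controls, 0.327 with the median ratio, 0.346 with no scaling, 0.309 with probes that have no mouse counterpart (chosen after seeing the data) and 0.726 with the deposited signals. The miR-21 ratio of 0.740 moved beyond its interval with positive controls, to 0.430. The miR-22 share in control EVs moved from 5.49% to 5.86% with the negative-control mean subtracted. By deposited signal, miR-22 ranked 5 in IL-1β EVs, and miR-21 ranked 15 in IL-1β and 8 in control EVs. With only probes that have a mouse counterpart ranked, miR-21 was at 48 and 41, since fewer probes were ranked. The 3 PPARα-list calls became 0 at a fold minimum of 4, and were 4 with positive controls and 2 with total counts. No paired analysis was possible because each group held 1 sample, and no replicate could be left out. Depth limits miR-21 (46 and 71 counts) more than miR-22.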
